A study of Homo sapiens with 6 samples.

Results

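The genes described here lie on the distal long arm of chromosome 21 and were chosen by measured values. An earlier look at the same 6 libraries found their RNA higher, as a run of neighbours, in onvansertib-resistant than in parental H526 cells. The members are all genes of chromosome 21 that start at or after 29 Mb (GRCh38) and have a mean normalized value of at least 10 over the 6 libraries, less 5 interferon-related genes (IFNAR1, IFNAR2, IFNGR2, MX1 and MX2). This gave 146 members of 516 rows in that stretch, the 5 not counted. Of the other rows, 370 lay under a mean of 10, and 247 of those were listed at 0 in every library. The members make up 146 of the 16347 genes tested in the whole series, and 48 genes of chromosome 21 before 29 Mb serve as the comparison. Of the members, 109 are protein coding, 36 are long non-coding RNAs and 1 is a transcribed processed pseudogene. Because the contrast of resistant with parental cells chose the members, their values are given as a description without a test.

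H526 is an established small cell lung cancer cell line, and onvansertib is an inhibitor of polo-like kinase 1 (PLK1), a kinase that drives mitosis. The parental group is H526 in RPMI-1640 medium with serum, in 3 libraries numbered 1, 2 and 3, and the resistant group is H526 from the same medium with onvansertib that was raised in steps from 10 to 75 nM, in 3 libraries numbered 7, 8 and 9. The labels describe a single course of selection, RNA was taken from both kinds of cell on 3 separate occasions, and the labels do not say that these were separate cultures, so the spread and the p-values cover only these libraries. Values are listed below in the order 1, 2, 3 and 7, 8, 9.

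Chromosome 21 carries regulators of transcription and chromatin, RNA-processing factors, a subunit of a chaperonin, enzymes of purine, sterol and sulfur amino acid metabolism and a run of genes known as the Down syndrome critical region. An extra copy of the chromosome causes Down syndrome, and RUNX1 on its long arm is among the best known leukaemia genes. In cells that gain or lose a chromosome, RNA of many genes follows the number of gene copies, while RNA of others does not. The number of gene copies was not measured in these libraries.

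Sequencing depth, estimated from the value that 1 read takes, lay between 25670343 and 28507278 reads in parental and between 22342169 and 23291405 in resistant libraries. Of 10 listed markers of the tuft-like kind of small cell lung cancer, POU2F3, its defining factor, had 25809 ± 1178 in parental and 27273 ± 535 in resistant cells (SD, n = 3), and the list summed to between 97384 and 100939 in parental and between 94125 and 95220 in resistant libraries. Single markers differed in direction, with AVIL at 20954 ± 813 and 12018 ± 264 and TRPM5 at 189 ± 39.2 and 643 ± 116 (parental and resistant, SD, n = 3). CHAT, at 54.6 in parental cells, was the 1 tuft-like marker with a mean under 100 in a group. The 8 neuroendocrine markers summed to between 15217 and 16947 in parental and between 6771 and 7881 in resistant libraries. The 4 epithelial markers all reached a mean of 100. The 5 leukocyte markers summed to between 15.2 and 32.6 per library. The 6 fibroblast and endothelial markers summed to between 128 and 178 in parental and between 369 and 587 in resistant libraries, through COL1A1 and COL1A2, while PECAM1 and CDH5 stayed under a value of 1. Their part in the results below was not tested. In bulk RNA, fewer cells of a kind and less RNA per cell cannot be told apart.

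The members as a group stood higher in every resistant library, by 2.09-fold at the median. The median log2 fold change over the 146 members was 1.06, with quartiles of 0.67 and 1.37, beside -0.00086 over all genes tested. Measured from the mean of the parental libraries, the median member lay at -0.04, 0.02 and 0.01 on the log2 scale in the parental libraries and at 1.05, 1.03 and 1.04 in the resistant ones. The groups did not overlap, and each stood close together. In resistant libraries 7, 8 and 9, 139, 138 and 142 of the 146 members lay above their parental mean. The members were chosen on this contrast, and the same count over all genes was not made, so nothing is read from it.

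Taken as a share of all normalized values in a library, the members held 0.702%, 0.716% and 0.716% in the parental and 1.48%, 1.48% and 1.44% in the resistant libraries. The means were 0.711% ± 0.008 and 1.47% ± 0.02 (SD, n = 3), a ratio of 2.06. By limma with a Benjamini-Hochberg adjusted p under 0.05, 119 members were called higher and 1 lower, where 17.8% of all genes tested were called higher, 19.8% lower and 37.7% in either direction. All resistant libraries lay above all parental ones for 125 members (85.6%), where 24.0% of all genes did so. The rule used this contrast, so nothing is read from these counts. A log2 fold change under 0 stood in 8191 of the 16347 genes tested. Among the members 4 had one, namely PCBP3, B3GALT5-AS1, RSPH1 and a long non-coding RNA, ENSG00000286018.

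**Figure D1:**
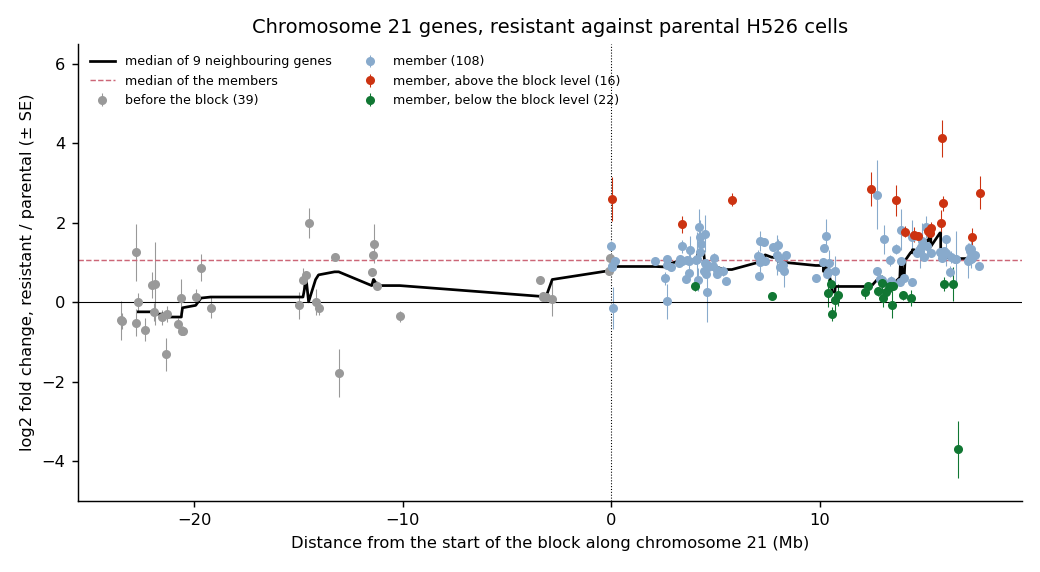
Log2 fold change of resistant over parental cells (vertical axis, ± SE of the limma fit, 3 libraries per group) against distance in Mb from the start of the block at 29 Mb (horizontal axis), for 146 members and 39 genes before it, with a line for the median of 9 neighbouring genes. The members scatter around their median of 1.06, shown dashed, with a dip where most of the 22 genes below the block level stand.

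The strongly expressed members stood at a similar level. Among the 64 members with a mean of at least 1000 the median log2 fold change was 0.98 and 62 were called higher. Their fold changes spread over an interquartile range of 0.50, while the median SE of a single gene among them was 0.08. For scale, the interquartile range was 0.39 over 5605 genes of the same level outside chromosome 21, of which 16.3% were called higher. Of the 146 members, 58 lay within 1.2-fold of the block median, 99 within 1.5-fold and 132 within 2-fold. Across the 146 members, the Spearman correlation of the fold change was -0.09 with mean level, 0.06 with transcript length and 0.17 with transcript GC content. These are descriptions over genes that share their libraries.

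At the edge set by the rule, the values did not step at 29 Mb. The 3 genes just inside were RWDD2B at 1.42 ± 0.12, ENSG00000273254 at 2.60 ± 0.55 and USP16, a deubiquitinase, at 0.90 ± 0.09 (log2 fold change ± SE). ENSG00000273254 read 0.889, 2.86 and 3.89 in the parental libraries, at most a few reads each, so its fold change rests on values near the floor. It overlaps USP16 on the other strand. The 3 genes just outside were LTN1, a ubiquitin ligase of stalled ribosomes, at 1.12 ± 0.08, N6AMT1, a methyltransferase, at 0.79 ± 0.11 and APP-DT at 0.09 ± 0.43. LTN1 read 2234, 1928 and 2135 in the parental libraries and 4529, 4835 and 4286 in the resistant libraries. LTN1 and N6AMT1 therefore lay with the members in size, and the next tested genes towards the centromere did not: APP, the amyloid precursor, had a ratio of 1.10 with a log2 fold change of 0.14, ATP5PF of 0.13 and GABPA of 0.15. MRPL39, the tested gene beyond these, stood at 0.57 ± 0.09, with groups that did not overlap.

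Farther towards the centromere the picture was mixed. Without 9 rows that the annotation marks as artifactual duplications, described below, 39 genes before 29 Mb had a median log2 fold change of 0.10, and 10 were called higher and 6 lower. The 19 of them that start before 14 Mb had a median of -0.30, with 0 called higher and 4 lower. The 20 that start from 14 Mb on had a median of 0.49, with 10 called higher and 2 lower. Over all genes tested, 17.8% were called higher. Some single genes there changed about as much as the members. USP25, a deubiquitinase, had a log2 fold change of 1.13, BTG3, an antiproliferative factor, of 1.18, and CXADR, the coxsackievirus and adenovirus receptor, of 0.76, whereas NRIP1 stood at -0.15. The 14 protein-coding genes before 29 Mb had a median of 0.63, with 9 called higher and 0 lower.

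Along the block the level was not flat. After the values were seen, the members were divided at SH3BGR and SIK1. The 68 members before SH3BGR had a median log2 fold change of 1.00, the 34 from SH3BGR to SIK1 one of 0.52, and the 44 after SIK1 one of 1.27. In the resistant libraries the median member of the first stretch lay at 1.00, 0.96 and 0.98 above the parental mean, of the middle stretch at 0.47, 0.54 and 0.55, and of the last at 1.34, 1.3 and 1.31. The order of the 3 stretches was the same in every resistant library. In the parental libraries their medians lay between -0.09 and 0.10. The division was chosen on these values and has no test.

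**Figure D2:**
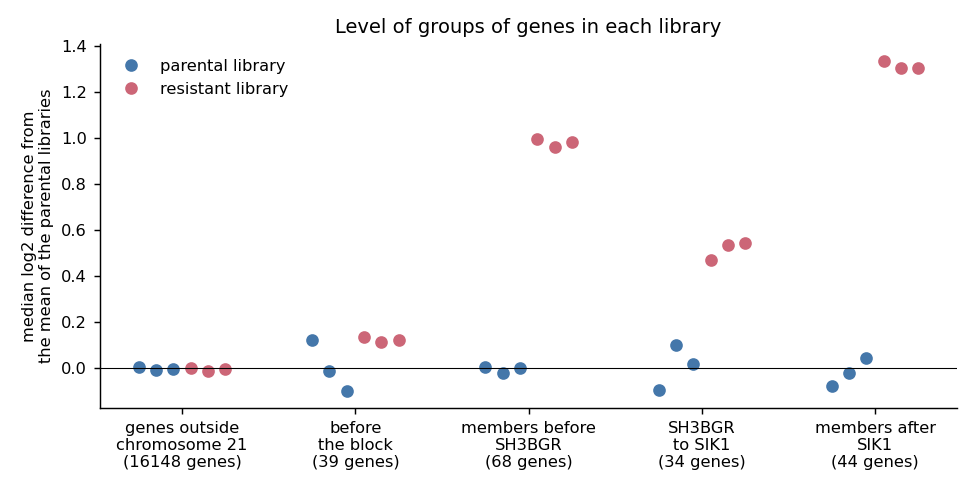
Median log2 difference from the mean of the parental libraries (vertical axis) in each of the 6 libraries, for genes outside chromosome 21, genes before the block and the 3 stretches of members (horizontal axis). Values are measured from the parental mean, so parental points sit around 0. Before the block, the points of libraries 1, 2 and 3 sit at 0.12, -0.01 and -0.10. Those of libraries 7, 8 and 9 sit there at 0.14, 0.11 and 0.12, close to library 1. In the members, resistant points sit between 0.96 and 1.00 before SH3BGR and between 0.47 and 0.55 from SH3BGR to SIK1. After SIK1 they sit between 1.3 and 1.34.

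To show the start-site context of genes at, above and below the block level, the 250 bases before the 1 start that the RefSeq table (GRCh38.p14) lists for each gene are printed for CCT8 (chr21:29073649-29073898, - strand), RUNX1 (chr21:34888700-34888949, - strand) and TMPRSS3 (chr21:42389150-42389399, - strand), each 5′ to 3′ on the strand of the gene. Measured from the 5′ end of the Gencode gene span, these starts lie inside the span by 149 bases for CCT8, 6942 for TMPRSS3 and 1115968 for RUNX1, so that the RUNX1 window precedes an internal start. Which start the reads came from was not analysed here. Capitals mark the GC box GGGCGG on either strand.
CCT8: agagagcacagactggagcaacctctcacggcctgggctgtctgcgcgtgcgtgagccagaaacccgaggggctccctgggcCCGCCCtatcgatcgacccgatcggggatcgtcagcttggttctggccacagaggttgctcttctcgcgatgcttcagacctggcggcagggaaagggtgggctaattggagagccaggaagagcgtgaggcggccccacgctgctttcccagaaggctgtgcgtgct
RUNX1: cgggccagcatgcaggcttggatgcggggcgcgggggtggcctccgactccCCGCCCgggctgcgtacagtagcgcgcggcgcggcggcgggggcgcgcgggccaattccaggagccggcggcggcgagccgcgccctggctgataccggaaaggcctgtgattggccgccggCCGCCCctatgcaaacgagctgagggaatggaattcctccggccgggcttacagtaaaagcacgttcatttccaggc
TMPRSS3: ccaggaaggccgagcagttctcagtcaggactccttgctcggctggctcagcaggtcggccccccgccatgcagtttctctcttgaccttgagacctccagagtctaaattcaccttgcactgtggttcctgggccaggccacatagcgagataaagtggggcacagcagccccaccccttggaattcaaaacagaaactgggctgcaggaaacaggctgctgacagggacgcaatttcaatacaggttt

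The CCT8 window holds 1 GC box and 18 CpG dinucleotides, the RUNX1 window 2 and 32, and the TMPRSS3 window 0 and 6. The promoter table matched 92 of the 146 members by symbol, with 140 start sites. A GC box stood in 61.4% of these 140 windows and in 42.6% of 35116 windows of all genes in the table. The TATA motif TATAAA, on either strand, stood in 10.0% and 10.7%. Among the 11 windows of members above the level, 90.9% held a GC box, and 8 of 16 windows of members below it did. Windows of 1 gene can overlap, the table holds weakly transcribed genes too, and a match of letters is no evidence of binding.

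Among transcription factors and chromatin proteins, 17 were members, with a median log2 fold change of 1.03 and 14 called higher. In this and the lists that follow, the count called higher stands beside 81.5% of all members and 17.8% of all genes tested. The rule used this contrast, so no such count is read as a result about a function. HMGN1, a nucleosome-binding protein, read 10569, 9073 and 9846 in the parental libraries and 15990.4, 15881 and 16256 in the resistant libraries, a ratio of 1.63 and a log2 fold change of 0.71 ± 0.07. BRWD1, a bromodomain protein, read 2583, 2526 and 2871 in the parental libraries and 7444, 6850.2 and 6171 in the resistant libraries, a ratio of 2.56. For both genes the groups did not overlap, and both lay within 1.5-fold of the block median. CHAF1B, a subunit of the chromatin assembly factor that places histones behind replication forks, read 1874, 1736 and 1705 in the parental libraries and 3819.8, 3391 and 3662 in the resistant libraries and lay at the block level with a log2 fold change of 1.03 ± 0.07.

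RUNX1, the DNA-binding subunit of core binding factor, had the largest change of any member with a mean of at least 100. RUNX1 lies at chr21:34787801-36004667 (- strand) and read 718, 988 and 1289 in the parental libraries and 5659, 6212 and 5537 in the resistant libraries. Every resistant library lay far above every parental one, and the parental libraries themselves differed. The mean was 998 ± 286 in parental and 5803 ± 359 in resistant cells (SD, n = 3), a ratio of 5.81, and the log2 fold change was 2.58 ± 0.17. BACH1, a repressor of haem and oxidative stress genes, stood at 1.04 ± 0.08, MORC3 at 1.51 ± 0.08 and ETS2 at 0.62 ± 0.08. At the other end, SIM2, a basic helix-loop-helix factor, read 559.9, 530.0 and 563 in the parental libraries and 558, 677 and 619 in the resistant libraries, and PKNOX1, a homeobox factor, read 1365, 1163 and 1304 in the parental libraries and 1438, 1226 and 1676 in the resistant libraries. The groups overlapped for SIM2 and for PKNOX1. The neighbours OLIG1 and OLIG2, factors of the oligodendrocyte lineage, parted: OLIG1 stood at 2.09 times the parental mean and OLIG2 at 1.33 times, with no overlap of the groups in either.

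Of the RNA processing and ribosome assembly list, 14 were members, with a median of 1.17, 13 called higher and 1, PCBP3, lower. SON, a protein of nuclear speckles needed for splicing, read 11547, 11869 and 12957 in the parental libraries and 21309.8, 19629 and 18510.3 in the resistant libraries, a ratio of 1.63. RRP1B, a nucleolar protein of ribosomal RNA processing, read 3750.2, 3359 and 3659.9 in the parental libraries and 9114, 8295 and 8134 in the resistant libraries, a ratio of 2.37. Both rows had groups that were apart, SON below and RRP1B above the block median. SCAF4, which binds the tail of RNA polymerase II, stood at 1.08 ± 0.06, URB1 at 1.08 ± 0.07, RRP1 at 1.26 ± 0.08 and ADARB1, an RNA-editing deaminase, at 1.60 ± 0.09. MCM3AP, a scaffold of messenger RNA export, read 2670.4, 2536 and 2639 in the parental libraries and 10573, 5427 and 4979.6 in the resistant libraries, so that resistant library 7 stood far above the other resistant libraries, and its log2 fold change of 1.33 was 0.99 without that library.

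The protein folding, ubiquitin and trafficking list had 20 members between log2 fold changes of 0.26 and 1.73, with a median of 0.96, an interquartile range of 0.31 and 19 called higher. CCT8, the theta subunit of the CCT chaperonin that folds actin and tubulin, lies at chr21:29055805-29073797 (- strand) and read 9505, 8156 and 8761 in the parental libraries and 17342, 15863 and 15629 in the resistant libraries. Its mean was 8808 ± 676 in parental and 16278 ± 929 in resistant cells (SD, n = 3), a log2 fold change of 0.89 ± 0.07. TTC3, a ubiquitin ligase, read 9346, 8784 and 8631 in the parental libraries and 16769, 17554 and 15577 in the resistant libraries, a ratio of 1.86. SUMO3, a small ubiquitin-like modifier, reached a ratio of 2.37 and UBE2G2, a ubiquitin-conjugating enzyme of the endoplasmic reticulum, one of 2.42, and both lie after SIK1. BACE2, a protease related to the beta-secretase, was the member not called, with 472, 801 and 524 in the parental libraries and 713, 721 and 656 in the resistant libraries and groups that overlapped.

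Of the metabolic enzymes and carriers, 19 were members, with a median of 1.00 and 17 called higher. All resistant libraries lay above all parental ones for each of the 19, where 85.6% of members and 24.0% of all genes did so. GART, which carries several steps of purine synthesis, read 4825, 4706 and 4523 in the parental libraries and 9861, 8901 and 9180.4 in the resistant libraries, a ratio of 1.99. SOD1, the cytosolic superoxide dismutase, read 4121, 3713 and 3848 in the parental libraries and 7543, 7147 and 7539.8 in the resistant libraries, a ratio of 1.90. GART and SOD1 thus lay close to the block level. PFKL, the liver form of phosphofructokinase, lay above it: it read 2909, 3519.8 and 3202 in the parental libraries and 9959.7, 11303 and 10929 in the resistant libraries, a ratio of 3.34 and a log2 fold change of 1.74 ± 0.08. PDXK, which makes the active form of vitamin B6, reached a ratio of 3.15. LSS, lanosterol synthase of the sterol pathway, stood at 2.15 times the parental mean, ATP5PO, a subunit of the ATP synthase, at 1.87 times and NDUFV3, of respiratory complex I, at 2.06 times.

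The 8 members for genome maintenance, centrosome and cell division were all called higher and lay between 0.89 and 1.37, with a median of 1.04. PCNT, pericentrin of the centrosome matrix on which mitotic kinases act, read 2656, 2464 and 2741 in the parental libraries and 5941, 5798 and 5267 in the resistant libraries, a ratio of 2.16. DONSON, which acts at replication forks, read 1642, 1358 and 1554 in the parental libraries and 2919.5, 2834 and 3061 in the resistant libraries, a ratio of 1.94. MIS18A, which helps to load the centromeric histone, stood at 0.98 ± 0.08. No gene of this list was off the block level.

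The signalling list had 16 members, a median of 0.94 and 14 called higher. DYRK1A, a dual-specificity kinase, read 2419, 2141 and 2299.7 in the parental libraries and 5728, 5537 and 4548 in the resistant libraries, a ratio of 2.31. PTTG1IP, a binding partner of securin, reached a ratio of 2.16 and RCAN1, an inhibitor of calcineurin, one of 1.46. TMPRSS3, a membrane serine protease and the most abundant signalling-list member here, read 12391, 12594 and 13144 in the parental libraries and 17186, 16127 and 17425 in the resistant libraries, a ratio of only 1.33 with groups that did not overlap. TFF3, a trefoil peptide of mucous epithelia, read 2324, 3589 and 3042 in the parental libraries and 3236, 3719.5 and 4378 in the resistant libraries, with groups that overlapped. Only 3 genes of the adhesion, matrix and membrane list were members, and B3GALT5, IGSF5 and COL18A1 all lay below the block level, at 0.45, 0.05 and 0.45.

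Per kilobase of the longest transcript, CCT8 had the highest level of all members, 4571 in parental and 8447 in resistant cells. TMPRSS3 followed with 4281 in parental and 5696 in resistant cells and TFF3 with 3443 in parental and 4358 in resistant cells. SUMO3 had 2311 in parental and 5483 in resistant cells on that scale, which placed it above TFF3 in resistant but not in parental cells. The 27 members of the Down syndrome critical region, among them SIM2, DYRK1A, HMGN1 and BRWD1, had a median log2 fold change of 0.92, with 22 called higher. The 52 members in no list had a median of 1.22, and the 36 long non-coding RNAs one of 1.23.

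A member was called off the block level when its log2 fold change lay at least 1.5-fold from the block median and its resistant values, less that median, did not overlap its parental values. By this description 38 members were off the level, 16 above and 22 below. The interquartile range of the log2 fold change was 0.69 over the members and 0.60 over genes tested outside chromosome 21. How many of all genes would meet such a rule around their own median was not computed. The count is therefore not read as a result about the members. Of the 22 below, 16 lie from SH3BGR to SIK1, and of the 16 above, 10 lie after SIK1. These borders were chosen on the same values, so nothing is read from where the genes fall. When each library was left out in turn, 12 of the 16 and 14 of the 22 kept their place every time.

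**Figure D3:**
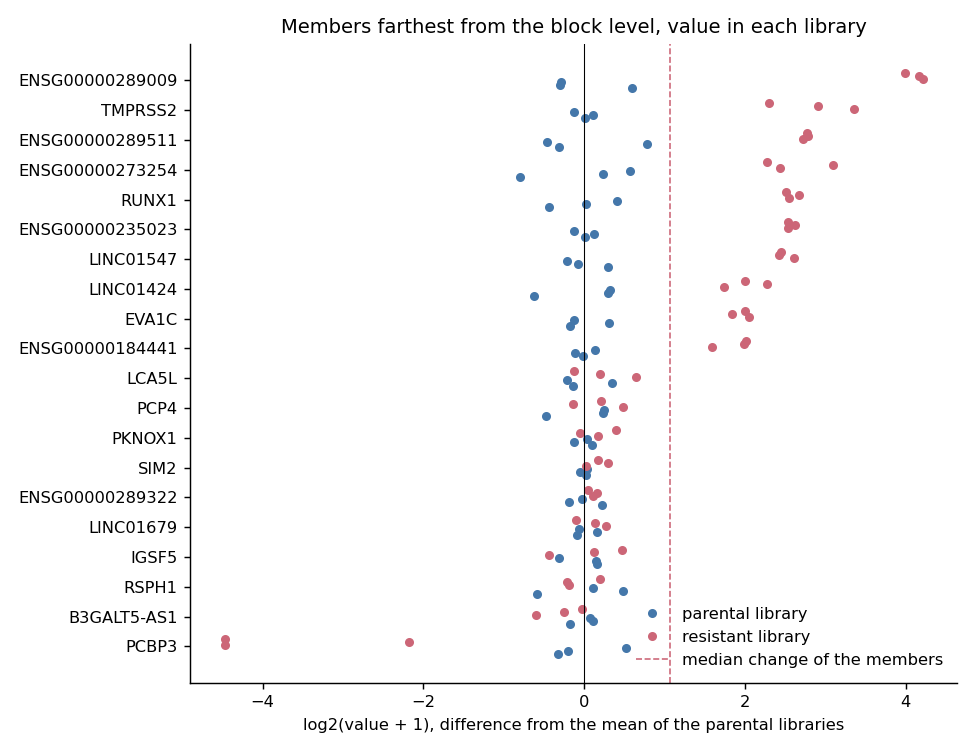
Value of the 20 members farthest from the block level in each library, as the difference of log2(value + 1) from the mean of the parental libraries (horizontal axis), 1 gene per line, with the median change of the members dashed. Resistant points lie to the right of the dashed line in the 10 genes above and to its left in the 10 below. The rule that picked these genes requires this, so it is not a result.

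Of the 16 members above the level, 9 had a mean of at least 100. TMPRSS2, ENSG00000289009, ENSG00000289511, ENSG00000273254 and ENSG00000235023 had parental means under 10. They passed the filter only through the resistant libraries, so the filter had a part in their place above the level. TMPRSS2, a membrane serine protease known for its androgen-driven fusions in prostate cancer, read 3.88, 4.22 and 3.42 in the parental libraries and 48.5, 35.2 and 22.8 in the resistant libraries, that is a few reads in parental cells. It overlaps MX1, one of the genes left out, on the other strand. EVA1C read 36.2, 51.3 and 37.6 in the parental libraries and 174, 149.9 and 168 in the resistant libraries, a ratio of 3.93. ICOSLG, the ligand of the T-cell costimulator ICOS, read 186, 315 and 215 in the parental libraries and 794, 875 and 772 in the resistant libraries, a ratio of 3.41. The rule for the block level requires groups that are apart, so the separation in TMPRSS2, EVA1C and ICOSLG is not read as a result. Among long non-coding RNAs, LINC01547 read 70.0, 53.6 and 48.8 in the parental libraries and 352, 308 and 313 in the resistant libraries and LINC01424 14.2, 27.9 and 28.3 in the parental libraries and 77.0, 112 and 93.0 in the resistant libraries. ENSG00000289009 read 2.67, 0.968 and 0.981 in the parental libraries and 43.9, 42.7 and 37.7 in the resistant libraries. With about 1 to 3 reads per parental library, its fold change depends on the pseudocount, from a log2 value of 2.16 with a pseudocount of 10 to 4.81 with 0.1, so no fold is given.

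PCBP3, an RNA-binding protein of the poly(C) family at chr21:45643694-45942454 (+ strand), was the single member called lower. It read 16.7, 18.3 and 30.8 in the parental libraries and 0, 3.87 and 0 in the resistant libraries. PCBP3 thus passed the filter only through the parental libraries. The log2 difference of -3.71 likewise depends on the pseudocount, from -1.49 to -5.96, and without parental library 3 its mean fell under 10 and it was not tested. B3GALT5-AS1 read 191, 233 and 227 in the parental libraries and 142, 182 and 213 in the resistant libraries, with groups that overlapped, and it lies opposite B3GALT5, a galactosyltransferase that read 1028, 1021 and 1258 in the parental libraries and 1200.0, 1797 and 1555 in the resistant libraries. The most strongly expressed genes below the level, TMPRSS3, TFF3, FAM3B and SLC37A1, had ratios of 1.33, 1.27, 1.31 and 1.32. All 4 lie from SH3BGR to SIK1, a stretch that was chosen on these values.

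Reads of some members could fall on a second row. The GRCh38 sequence of the short arm holds near-identical stretches of the distal long arm, and the annotation marks 9 tested genes there as artifactual duplications of members. The best matching transcripts differed by 1 of 945 bases for U2AF1, by 1 of 2495 for CBS, by 2 of 1584 for GATD3 and by 6 of 3188 for PWP2. To show how close they are, a stretch of 60 coding bases of PWP2 (gene at chr21:44107373-44131181 (+ strand), Gencode v44 transcript), positions 43 to 102 counted from the first base of the start codon, is printed in both forms. They are identical but for G73A, in capitals, where the first letter is the base of PWP2 and the last that of the duplicated row.
PWP2: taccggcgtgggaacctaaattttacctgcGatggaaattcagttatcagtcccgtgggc
duplicated row: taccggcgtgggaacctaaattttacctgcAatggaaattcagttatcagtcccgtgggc

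U2AF1, the small subunit of the splicing factor that reads the 3′ end of introns, is the clearest case. Its own row, chr21:43092956-43107570 (- strand), read 1542, 1026 and 1062 in the parental libraries and 3739, 4014 and 4444 in the resistant libraries, a log2 fold change of 1.77 that placed it above the block. The duplicated row, chr21:6484623-6499248, read 2628, 2567 and 2931 in the parental libraries and 3883, 3117 and 3112 in the resistant libraries. The sum of both rows was 3918 ± 296 in parental and 7437 ± 267 in resistant cells (SD, n = 3). Its log2 fold change was 0.93, and the duplicated row held 69.1% of that sum in parental and 45.3% in resistant cells. The sum thus lay at the block level, not above it. For CBS, cystathionine beta-synthase, the log2 fold change went from 0.62 for the row alone to 0.91 for the sum, and for SIK1, a salt-inducible kinase, from 0.51 to 0.13, below the block.

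For GATD3 and PWP2 nearly all of the sum of both rows stood in the duplicated row, 94.2% of that sum in parental and 95.6% in resistant cells for GATD3 and 95.6% of that sum in parental and 94.0% in resistant cells for PWP2, a protein of the small ribosomal subunit processome. Their sums had log2 fold changes of 1.80 and 1.40. Summing moved U2AF1 back within the level, GATD3 above it and SIK1 below it, and ZNF295-AS1, which has no such row, came within it as the median moved, so that the number off the level was again 38. This sum was added after the data were seen.

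**Figure D4:**
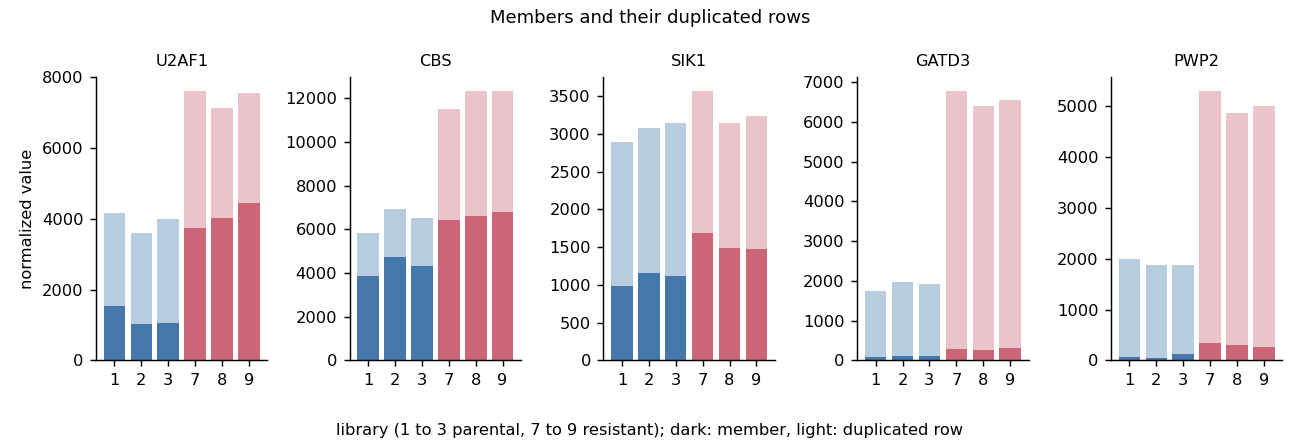
Normalized value (vertical axis, from 0) in each library (horizontal axis, 1 to 3 parental and 7 to 9 resistant) of 5 members in dark and of their duplicated row stacked in light. For U2AF1 the dark part differs more between groups than the whole bar, for SIK1 the whole bar differs little, and for GATD3 and PWP2 the light part holds nearly all of the bar.

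Other members share bases with a neighbour. Of the 146 members, 63 overlap another gene with a mean of at least 10, 16 of them on the same strand and 55 on the opposite one. The strand setting of the counting is not given in the sources used here, so reads of such pairs may be split between them. The read-through row IFNAR2-IL10RB, with a mean of 30.8 ± 13.5 in parental and 124 ± 68.8 in resistant cells (SD, n = 3), covers a gene that the rule left out, and TMPRSS2, B3GALT5-AS1, SIM2, RSPH1 and LCA5L are among the off-level genes with a partner on the other strand.

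The 5 genes left out are known for interferon signalling. The receptor subunits IFNAR1, IFNAR2 and IFNGR2 had log2 fold changes of 1.27, 1.19 and 1.03, close to the block, while the interferon-induced MX1 had 1.98 and its neighbour MX2 0.33.

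Several members work with proteins encoded on other chromosomes, and calls among these partners went in both directions. A list of 45 complex partners and paralogs of members, all outside chromosome 21 and all measured, had a median log2 fold change of -0.11. The listed members, of which 24 of 25 were measured, had a median of 1.02. That median takes each member's own row, without the duplicated rows of members such as U2AF1 and PWP2. By limma with Benjamini-Hochberg adjustment, 6 partners were higher and 15 lower, 46.7% of the list beside 37.7% of all genes tested in either direction. Of all genes tested, 17.8% were called higher and 19.8% lower. The member lay above its partner in 43 of 44 pairs with both genes measured. The members were chosen as higher in resistant cells, so nothing is read from that count. The 32 complex partners had a median of -0.11, and the 13 paralogs one of 0.14. Of the 15 lower partners, 4 (CCT2, ATP5F1B, METTL1 and VPS29) lie on chromosome 12, which holds 5 partners in all. There 45.3% of 835 genes tested were lower, with a median log2 fold change of -0.34, beside 19.8% lower among all genes tested. Chromosome 19 holds 4 partners, of which 3 (U2AF2, GET3 and DYRK1B) were lower, and 30.1% of its 1132 genes tested were lower. Chromosome 7 holds 1 partner, CCT6A, which was lower, as were 39.2% of its 826 genes tested. The other lower partners lie on chromosomes where between 13.6% and 25.3% of genes tested were lower. The part of the chromosome in these partner calls was not tested.

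The CCT chaperonin was the best covered complex. Against CCT8 at 0.89 ± 0.07, CCT5 had 13568 ± 815 in parental and 7339 ± 455 in resistant cells (SD, n = 3; limma log2 fold change -0.89 ± 0.07, adjusted p = 9.56e-06). CCT2 fell too (limma log2 fold change -0.66 ± 0.08, adjusted p = 0.000127), as did TCP1 (limma, -0.42 ± 0.05, adjusted p = 0.000236). CCT3, CCT4 and CCT7 did not pass the test, at -0.09, -0.01 and -0.11. In the ATP synthase, ATP5F1B read 32194, 30042 and 30674 in the parental libraries and 19552, 17949 and 19039 in the resistant libraries (limma log2 fold change -0.72 ± 0.06, adjusted p = 1.35e-05), and every resistant library lay below every parental one. ATP5F1A, ATP5PB and ATP5PD did not pass, at -0.01, -0.12 and -0.11.

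CBFB, the partner that core binding factor needs beside RUNX1, fell (limma log2 fold change -0.45 ± 0.09, adjusted p = 0.00288), with 2948 ± 324 in parental and 2155 ± 110.1 in resistant cells (SD, n = 3). U2AF2, the large subunit beside U2AF1, fell (limma log2 fold change -0.39 ± 0.05, adjusted p = 0.000364). METTL1, the transfer RNA methyltransferase that works with WDR4, fell (limma log2 fold change -0.88 ± 0.16, adjusted p = 0.00173), and VPS29, a sorting coat subunit beside VPS26C, fell (limma log2 fold change -0.46 ± 0.08, adjusted p = 0.00168). VPS35L, beside VPS26C, rose (limma log2 fold change 0.59 ± 0.14, adjusted p = 0.00899). CHAF1A and RBBP4, beside CHAF1B, stood at 0.03 and -0.02 and did not pass.

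Among paralogs, DYRK1B was lower (limma log2 fold change -0.94 ± 0.10, adjusted p = 8.83e-05) and so was HMGN2 (limma, -0.52 ± 0.08, adjusted p = 0.000542). ETS1 and ITSN2 were higher (limma log2 fold changes 0.70 ± 0.15, adjusted p = 0.00447 and 0.45 ± 0.10, adjusted p = 0.0043). SUMO2, at -0.12, and PFKM, at -0.13, did not pass. In all, the calls of 14 partners, 4 of them up, held when each library was left out in turn. The other 7 calls, for CCT6A, NDUFV1, COL6A3, PFKP, GET3, SYNJ2 and UTP6, were all lost without parental library 3, with limma adjusted p between 0.053 and 0.121, which left 14 partners called. All but PFKP were lost without other libraries too. UTP6 was lost in 6 of the 6 omissions, CCT6A in 5, NDUFV1, COL6A3 and SYNJ2 in 4 each and GET3 in 2, with limma adjusted p up to 0.166. Whether the members and the partners as groups differ was not tested, since the members were chosen on their change.

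**Figure D5:**
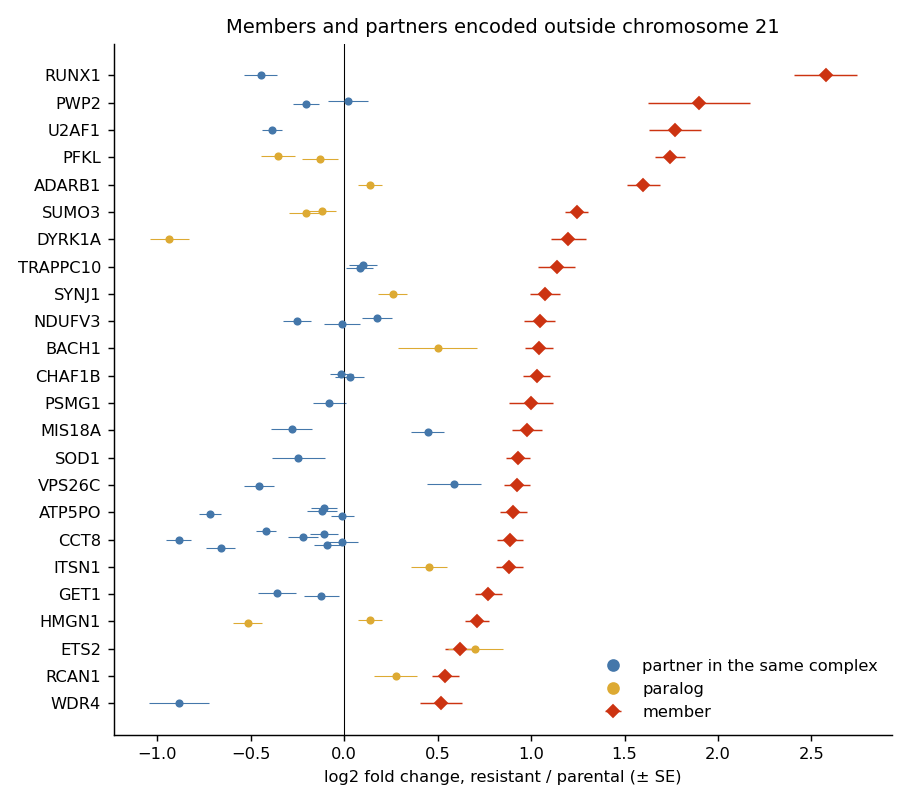
Log2 fold change of resistant over parental cells (horizontal axis, ± SE of the limma fit) for 24 members (diamonds, 1 per line) and for their complex partners and paralogs outside chromosome 21 (circles). The diamonds lie between 0.52 and 2.58, and all but 1 of the circles, ETS1 beside ETS2, lie to the left of their diamond. Diamonds show each member's own row, without duplicated rows. With these added, U2AF1 goes from 1.77 to 0.93 and PWP2 from 1.90 to 1.40. The members were chosen on this change, so the order of diamonds and circles is not read as a result.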

How the data were processed

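RNA from 3 parental and 3 resistant H526 libraries was prepared with a NEBNext Ultra kit. The authors trimmed reads with Trimmomatic 0.38, quantified genes with RSEM 1.3.1 and normalized the counts with DESeq2 1.30.0; STAR is also named in the submitters' processing notes, and whether counting used strand is not given in the sources used here. What they deposited is this normalized signal, per gene and per library. Only 56.4% to 64.7% of the low values equalled a whole number of reads, so whole reads were not recovered, and the count tests planned as alternatives were not run. The study's own test needs counts.

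Of 62757 rows, 47 second copies of pseudoautosomal genes were left out, and 62639 of 62710 matched Gencode v44 by identifier, which gave symbols and GRCh38 positions. Genes with a mean of at least 10 were fitted as log2(value + 1) in limma 3.58.1 under R 4.3.3. The model had condition alone and a trend on intensity, and p-values were adjusted by Benjamini-Hochberg over all genes tested, at 0.05. Log2 fold changes are on that scale and understate changes of low genes. Errors are SD over libraries or the limma SE. For a single gene in 6 libraries, the smallest exact two-sided permutation p is 0.10. A value of 3 reads was between 2.67 and 3.23 per library and covers counting error only. Other steps used Python 3.11.15, pandas 2.3.3 and matplotlib 3.10.9, and promoters came from RefSeq (GRCh38.p14).

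The members, the role lists and the partner list were chosen with earlier results of these data known. Named genes were the 3 on each side of 29 Mb, the 10 farthest from the block median on each side, the 4 with the highest mean in each role list, the 5 left out and the listed members and partners. Others named, such as USP25, BTG3, CXADR, MORC3, OLIG1, URB1, RRP1, PDXK, ICOSLG and the duplicated rows, were picked after their values were seen. Alternatives were a pseudocount of 0.1 or of 10, leaving out the filter, raising it to a mean of 50, rescaling on genes outside chromosome 21, quantile normalization, no trend, each library left out, starts at 28 and 31 Mb, protein-coding genes only and a 2-fold limit for the block level. Some single genes of the marker and partner lists are not reported here.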

Additional observations from a re-analysis of the deposited data

How the results depend on the processing

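The median log2 fold change of the members was 1.06 and stayed between 1.03 and 1.07 when each library was left out. It moved by more than the spread between libraries to 1.01 with a pseudocount of 10 and to 0.911 with no filter. The number called higher, 119, was between 111 and 121 with a library left out. The number called lower, 1, was 3 with no filter and 0 with a minimum mean of 50. It was between 0 and 1 with a library left out, since without parental library 3 PCBP3 was not tested. The number off the block level, 38, was 63 with no filter, 25 among protein-coding genes only, with fewer genes tested, and 11 with a 2-fold limit, 7 above and 4 below. With a library left out it was between 38 and 43. The number of partners called, 21, was between 14 and 20 with a library left out and 14 without the trend. Alternatives for the partners and the sum of duplicated rows were chosen after seeing the data.

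Of 1701 log2 fold changes of named genes under the alternatives, 1614 kept their direction and side of the threshold. A further 52, of 9 genes, were no longer past it, and 7, of 5 genes, came past it. Another 28, of 13 genes, changed sign, each with a value near 0. Under quantile normalization these were IGSF5 (-0.14), APP-DT (-0.17), LINC01679 (-0.0743), ENSG00000289322 (-0.0745), CCT3 (0.0094), CCT4 (0.0296), ATP5F1A (0.13), NDUFS1 (0.0338) and RBBP4 (0.13). With each library left out in turn, the ranges were -0.157 to 0.2985 for IGSF5, -0.2195 to 0.3419 for APP-DT, -0.3644 to 0.171 for RSPH1, -0.0496 to 0.351 for PCP4, -0.0813 to 0.0767 for CCT4, -0.058 to 0.0285 for ATP5F1A, -0.1164 to 0.0899 for NDUFS1, -0.0266 to 0.084 for CHAF1A, -0.0485 to 0.033 for RBBP4 and -0.0566 to 0.1142 for WDR36. The cause was not tested.

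No paired analysis was run because no library number occurs in both groups (1 to 3 and 7 to 9). The study calls the parental and resistant cells matched, and RNA was taken on 3 occasions. Neither the study nor the labels say which parental and resistant libraries share an occasion, so a shared occasion was not modelled. How a pairing would move the calls was not tested. Depth limits the members under a mean of 100, where a few reads decide the fold change. Gene copies, strand of counting and single cells were not analysed here.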
